A study of Mus musculus with 8 samples.

Results

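The interneurons of the mouse prefrontal cortex (PFC) are described here. They are the cells that the authors' deposited annotation of the PFC names inhibitory, and they were taken from the raw matrices by library and barcode. They numbered 298 of the 8997 annotated PFC cells and of the 23687 annotated cells of the whole series. WT replicates 1 and 2 held 48 and 100 of them, and Setd1a+/- replicates 1 and 2 held 90 and 60. No barcode was shared by interneurons of different libraries.

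The question of the study was which cell types respond when 1 copy of Setd1a, a gene for a histone methyltransferase, is lost. Setd1a+/- mice carried a CRISPR-Cas9 frameshift deletion in exon 15 of Setd1a, ahead of the part that encodes the catalytic SET domain. The deletion is in the germline, so every cell of the animal carries it, and the controls were WT littermates. All mice were males of strain C57BL/6N, aged 8 to 10 weeks by the labels; the study's methods give another age. Each of the 4 PFC libraries, 2 per genotype, was made from the pooled tissue of 2 mice, and a biological replicate was 1 WT and 1 Setd1a+/- library. P-values therefore measure the spread between libraries of pooled mice.

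Cortical interneurons are neurons that release the inhibitory transmitter GABA onto nearby cells. Most fall into classes that differ in the peptide or calcium-binding protein they make, in where they contact their targets, and in their embryonic origin. Parvalbumin cells contact the cell body, somatostatin cells the dendrites, and vasoactive intestinal peptide cells contact mostly other interneurons, while neurogliaform cells, which express Lamp5, release GABA more diffusely. Setd1a places methyl groups on lysine 4 of histone H3, a mark of active promoters.

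Among genes with at least 20 interneuron UMIs in each library, 2 had the largest fold over every other PFC cell type. These were Vip (chr10:5639218-5647617, plus strand) and Sst (chr16:23889573-23890958, minus strand), which encode the peptides that name a class each. Positions of genes are those of GENCODE vM21 on GRCm38. Both are known targets of the activity-regulated factor CREB, whose site is TGACGTCA or its shorter form TGACGT. Their promoters, from 250 bases before to 50 bases after the start of the RefSeq gene on GRCm38.p6, are shown because both hold such letters in this window. The Sst promoter lies at chr16:23890795-23891094 on the minus strand and the Vip promoter at chr10:5638968-5639267 on the plus strand. Capitals mark the match.
Sst: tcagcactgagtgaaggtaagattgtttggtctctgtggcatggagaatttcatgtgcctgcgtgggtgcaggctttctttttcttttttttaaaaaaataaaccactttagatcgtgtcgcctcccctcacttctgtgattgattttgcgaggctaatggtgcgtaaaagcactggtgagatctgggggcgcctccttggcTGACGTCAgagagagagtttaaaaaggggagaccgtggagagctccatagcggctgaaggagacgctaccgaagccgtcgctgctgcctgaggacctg
Vip: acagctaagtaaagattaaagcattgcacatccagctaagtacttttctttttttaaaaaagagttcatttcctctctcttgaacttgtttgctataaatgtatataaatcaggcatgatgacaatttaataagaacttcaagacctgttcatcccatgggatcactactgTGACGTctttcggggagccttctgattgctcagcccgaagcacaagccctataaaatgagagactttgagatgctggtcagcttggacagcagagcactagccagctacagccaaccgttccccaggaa
The match began 48 bases before the RefSeq start in Sst and 79 bases before it in Vip. For Sst the GENCODE gene starts further upstream, at 23890958, so the match lies within the GENCODE interval given above. For Vip the starts of both annotations are the same. Of 32851 promoters of 27025 gene symbols in the RefSeq table, 588 (1.79%) held TGACGTCA, which reads the same on both strands. The shorter TGACGT, which lies within the longer motif, was held on either strand by 2468 promoters (7.51%). Of the 20 genes most enriched in interneurons 18 were found in the table, and Sst and Vip were the 2 that held TGACGT. No match was found in the window of Npy, another peptide gene of interneurons. A match is a run of letters and not evidence that a factor was bound.

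The interneurons of the WT libraries held 349921 and 502079 UMIs (unique molecular identifiers, each standing for 1 captured transcript) and those of the Setd1a+/- libraries 450657 and 302117. The median interneuron had 7398.5 UMIs in WT replicate 1, more than the 5081.5, 4799.5 and 4546 of the other libraries. Levels below are in CPM, the UMIs of a gene scaled to a total of 1000000 UMIs over the same cells. Summed counts cannot tell fewer cells of a class from less RNA per cell. Gad1 or Gad2, which encode the enzymes that make GABA, had a UMI in 294 interneurons (98.7%). Slc17a7 or Neurod6, markers of excitatory neurons, had a UMI in 19 interneurons (6.38%) and at least 2 UMIs in 1. Markers of other types summed to between 91 and 219 CPM for 8 excitatory genes, 104 to 283 CPM for 7 oligodendrocyte genes, 169 to 235 CPM for 7 astrocyte genes and 20 to 95.6 CPM for 6 genes of oligodendrocyte progenitors. Microglial markers stood at 345 CPM in WT replicate 2 and at 39.7 to 65.7 CPM in the other libraries, against 35203 CPM in microglia. Endothelial and mural markers stood at 771 and 1013 CPM in replicate 2 of WT and Setd1a+/- mice and at 246 and 264 CPM in replicate 1. Of these sums Bsg, which excitatory neurons held at 300 CPM, made up 623, 844, 200 and 133 CPM, and without it, a choice made after its values were seen, they were 147 and 169 CPM in replicate 2 and 45.7 and 131 CPM in replicate 1. Enpp6 and Tcf7l2 of newly formed oligodendrocytes and Adora2a of medium spiny neurons were at 0.

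Genes of the GABA machinery were found in the interneurons of each library. The authors named cell types by known marker genes, so these levels describe the label and do not test it. Gad1 (chr2:70553072-70602014, plus strand) was at 1903 and 1297 CPM in the WT libraries and 1644 and 1526 CPM in the Setd1a+/- libraries, and the next type, oligodendrocyte progenitors, was at 35 CPM. Gad2 (chr2:22622205-22693874, plus strand) was at 2015 and 1255 CPM in WT, against 1658 and 1469.6 CPM in Setd1a+/- libraries. Slc32a1 (chr2:158610767-158615748, plus strand), which loads GABA into synaptic vesicles, was at 432 and 325 CPM in WT, against 553 and 351 CPM in Setd1a+/- libraries. The genotypes overlapped for each of these 3 genes. A UMI of Gad1 was found in 94.3% of interneurons at a median of 5203.5 UMIs per cell. The share was 5.83% in oligodendrocyte progenitors at a median of 1651 UMIs, the highest of the other types. It was 1.18% in oligodendrocytes at 2056 and 1.87% in excitatory neurons at 6546.

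The 20 genes of largest fold over the highest other PFC type were taken from those with at least 20 interneuron UMIs in each library. They were made up of peptides, transcription factors of the interneuron lineage, the GABA machinery and a few membrane proteins. As the annotation was built from the same cells, these folds are a description and carry no test. Among peptides and secreted proteins, Vip was 601-fold above astrocytes (2562 against 4.26 CPM; exact 95% counting interval 257 to 1852) and Sst 343-fold above oligodendrocyte progenitors (7406 against 21.6 CPM). Pnoc, the precursor of nociceptin, was at 375 CPM and 266-fold above excitatory neurons. Cort, which encodes cortistatin, was 142-fold above the next type (counting interval 39 to 1172, from 2 UMIs there). Tac2, the neurokinin B precursor, was 134-fold above it, and Crhbp, which binds corticotropin-releasing hormone, 111-fold (30.5 to 922, from 2 UMIs). Reln, the secreted matrix protein reelin, was 65.2-fold, Npy (neuropeptide Y) 26.5-fold, the retinol carrier Rbp4 24.7-fold and the growth factor Igf1 18.7-fold above it. Npy had the highest level of the 20 in any other type, 430 CPM in oligodendrocyte progenitors, 21.8% of which had a UMI of it. The lineage genes Dlx5 and Dlx1, homeobox factors, were 58.8-fold and 44.6-fold above the next type, the latter with an interval of 15 to 218 from 3 UMIs there. Dlx6os1, an RNA antisense to Dlx6, was 99.4-fold above it (27.3 to 824, from 2 UMIs). Reads of Dlx6os1 and Dlx6 can be told apart only if the counting used strand, which was not given in the sources used here. Slc32a1, Gad2 and Gad1 were 110-fold, 104-fold and 44.8-fold above the next type. The rest were Kcnmb2, a subunit of large-conductance potassium channels (41-fold), the receptor tyrosine kinase Kit (22.1-fold), the synaptic vesicle protein Sv2c (19-fold) and Rab3b, a small GTPase of vesicle release (14.4-fold). Each of the 20 was highest in interneurons in 4 of 4 libraries.

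**Figure D1:**
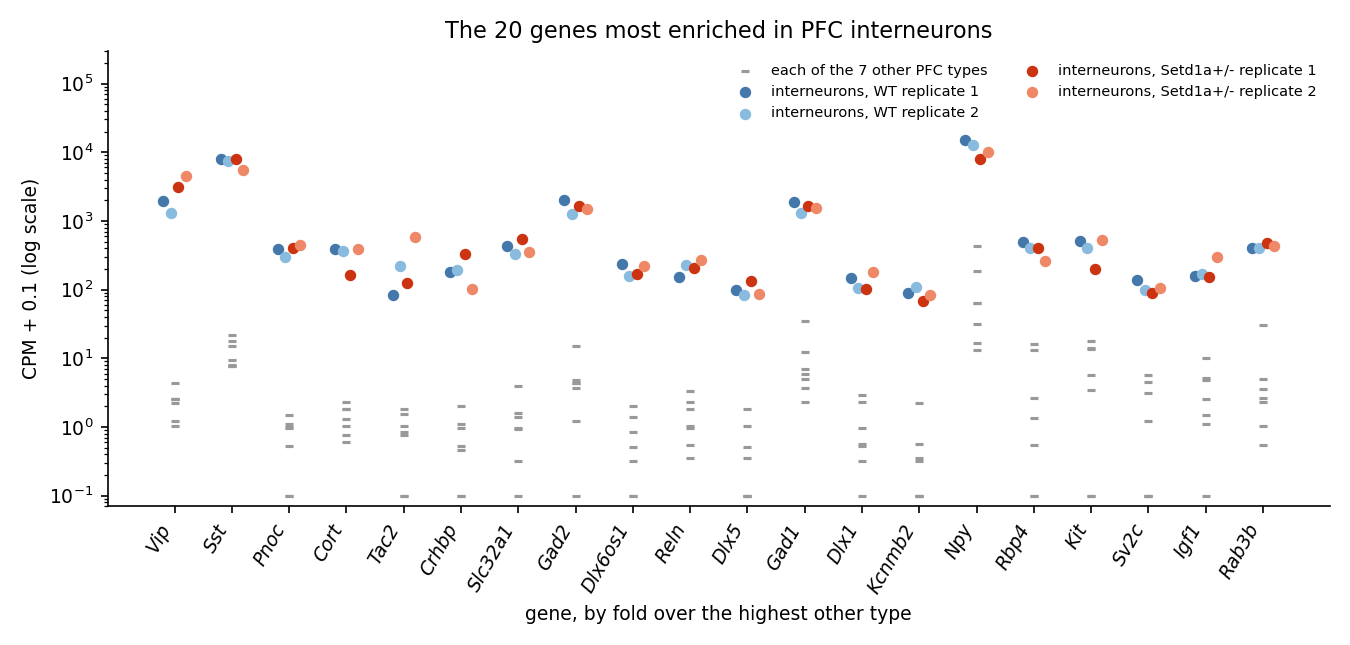
Level (CPM + 0.1, log scale) of the 20 genes with the largest fold of interneurons over the highest other PFC type, among genes with at least 20 interneuron UMIs in each library. There is 1 point per interneuron library (48, 100, 90 and 60 cells) and 1 grey dash for each of the other PFC types over all libraries. The 4 interneuron points lie above every dash for each gene, and for Vip both Setd1a+/- points lie above both WT points.

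The rest of the transcriptome set interneurons apart less. Of 2469 genes with at least 20 interneuron UMIs in each library, 761 were higher in interneurons than in any other PFC type, 95 by at least 2-fold, 27 by at least 5-fold and 21 by at least 10-fold. In all 4 libraries 414 were highest in interneurons. For 61 of the 95 genes the next type was the excitatory neuron, for 13 the oligodendrocyte progenitor and for 8 the microglia.

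Interneurons were clustered again among themselves on their variable genes, and 4 clusters were found. Each was named from marker lists of the cortical classes. As the genes below placed the cells, their levels define the classes and were not tested. The Lamp5-like class held 104 cells (34.9%, 95% Wilson interval 29.7 to 40.5%), the Sst-like class 89 (29.9%, 25 to 35.3%), the Vip-like class 64 (21.5%, 17.2 to 26.5%) and the Pvalb-like class 41 (13.8%, 10.3 to 18.1%). These intervals cover counting error only. The median cell had 5734.5 UMIs in the Lamp5-like, 6169 in the Sst-like, 3605.5 in the Vip-like and 5258 in the Pvalb-like class.

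Lamp5-like cells had the highest levels of most genes of the Lamp5 list, which stands for neurogliaform cells. Lamp5, a lysosome-associated membrane protein of GABA terminals, was found in 91.3% of them at 958 CPM, against at most 5.49 CPM in the other classes. Id2, an inhibitor of basic helix-loop-helix factors, was at 1337 CPM, Cplx3, a complexin that acts in vesicle fusion, at 523 CPM, and Kit at 951 CPM. Npy stood at 26924 CPM in 98.1% of these cells, against 3493 CPM in the Sst-like, 1419 CPM in the Pvalb-like and 156 CPM in the Vip-like class. Gad1 was also highest here, at 2847 CPM against 568, 1057 and 1158 CPM in the Sst-like, Vip-like and Pvalb-like classes. This order of Gad1 held in every library between the Lamp5-like class, at 2514 to 3081 CPM, and the Sst-like class, at 396 to 986 CPM. Other members of the Lamp5 list were less particular to the class. Reln was lower here than in Sst-like cells (210 against 379 CPM) and Adarb2 lower than in Vip-like cells (349 against 825 CPM). Ndnf and Lsp1 were highest here but found in only 27.9% and 13.5% of Lamp5-like cells.

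Sst was found in each Sst-like cell, at 20415 CPM. The same cells held Calb1, the calcium-binding protein calbindin, at 991 CPM, Crhbp at 553 CPM, Rbp4 at 852 CPM, Reln at 379 CPM and the transcription factor genes Lhx6 and Sox6 of cells born in the medial ganglionic eminence at 95.2 and 112 CPM. Adarb2 and Prox1, genes of interneurons born in the caudal ganglionic eminence, were at 0 in the Sst-like and Pvalb-like classes. They were at 349 and 139 CPM in the Lamp5-like and at 825 and 254 CPM in the Vip-like class.

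In the Vip-like class Vip was found in 84.4% of cells at 17281 CPM. Calb2, the calcium-binding protein calretinin, was at 1958 CPM, Tac2 at 1256 CPM, the enkephalin precursor Penk at 782 CPM and the serotonin receptor subunit Htr3a at 182 CPM. Synpr, a synaptic vesicle protein, was found in all Vip-like cells at 3214 CPM and in 98.9% of Sst-like cells at 1579 CPM, against 186 and 78.9 CPM in the Pvalb-like and Lamp5-like classes. Cnr1, the cannabinoid receptor of axon terminals, was at 930 CPM in the Vip-like and at 133 to 344 CPM in the other classes.

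The Pvalb-like class was led by Tac1, the substance P precursor, found in 65.9% of its cells at 1578 CPM, and Pvalb (parvalbumin), found in 56.1% at 760 CPM. Kcnc2, a potassium channel of fast-spiking cells, was at 486 CPM and Cplx1, a complexin, at 756 CPM. Cox6a2, Kcnc1, Syt2 and Vwc2 of the Pvalb list were also highest here, though Syt2 was found in only 7.32% of cells. The rest of the list was higher elsewhere. Lhx6 (95.2 against 70.7 CPM here) and Sox6 (112 against 92.8 CPM) were higher in Sst-like cells. Pthlh (165 against 92.8 CPM) and Mybpc1 (21.1 against 17.7 CPM) were higher in Vip-like cells. Sst was found in 29.3% of Pvalb-like cells, at 3235 CPM, Rbp4 in 65.9% and Cort in 48.8%. The median mitochondrial share of the class was 5.47%, against 3.1 to 3.79% in the other classes.

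**Figure D2:**
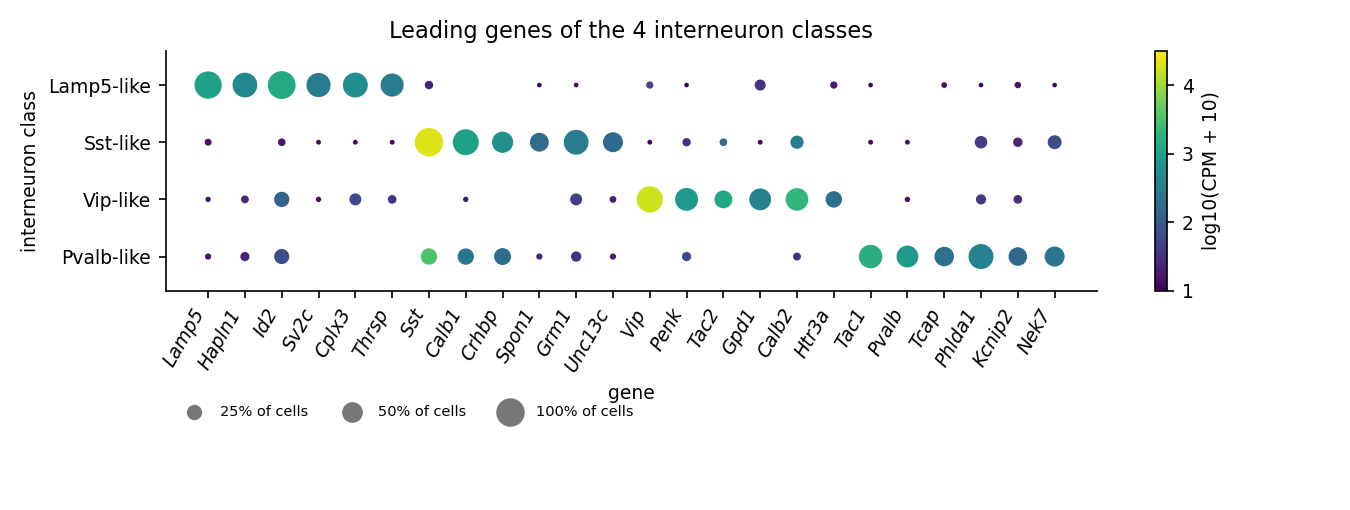
Leading genes (x axis) of the 4 interneuron classes (y axis), over 104, 89, 64 and 41 cells. Dot area is the share of cells with a UMI, as in the key, and colour is log10(CPM + 10) over the cells of the class; Sst was found in 29.3% of Pvalb-like cells, and Lamp5 is largest in the Lamp5-like row.

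Over the 298 cells, the genes most like each of Sst, Vip, Pvalb and Lamp5 by Spearman's rho of normalized counts were mostly of its own class. For Sst they were Calb1 (0.78), Satb1 (0.72), a factor of medial ganglionic eminence cells, and Lypd6 (0.68). For Vip they were Penk (0.55), Synpr (0.54) and Gpd1 (0.53), and for Pvalb Gm13629 (0.62), Tcap (0.6) and Tac1 (0.6). Lamp5, chosen after its values were seen, was followed by Id2 (0.76), Sv2c (0.72) and Cplx3 (0.71). The cells share libraries and differ in depth, and the values are descriptions.

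The share of the classes in the libraries was compared next, with all 4 classes present in each. Lamp5-like cells were 33.3% and 36% of interneurons in the WT libraries and 35.6% and 33.3% in the Setd1a+/- libraries, and Sst-like cells were 25% and 32% in WT and 31.1% and 28.3% in Setd1a+/- libraries. Both shares overlapped between genotypes, with differences of means of -0.222 and 1.22 percentage points (two-sided exact permutation test over libraries, p = 1 for both). Pvalb-like cells were 22.9% (Wilson interval 13.3 to 36.5%; 11 of 48 cells) and 19% (12.5 to 27.8%; 19 of 100) in the WT libraries. They were 8.89% (4.57 to 16.6%; 8 of 90) and 5% (1.71 to 13.7%; 3 of 60) in the Setd1a+/- libraries. Vip-like cells were 18.8% (10.2 to 31.9%; 9 cells) and 13% (7.76 to 21%; 13 cells) in the WT libraries. They were 24.4% (16.7 to 34.2%; 22 cells) and 33.3% (22.7 to 45.9%; 20 cells) in the Setd1a+/- libraries.

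Pvalb-like shares thus were lower, and Vip-like shares higher, in both Setd1a+/- libraries than in both WT libraries. The means were 21% against 6.94% for Pvalb-like cells, a difference of -14 percentage points, and 15.9% against 28.9% for Vip-like cells, a difference of 13 points. The exact permutation test gave p = 0.333 for each, the smallest value that 2 libraries against 2 allow. When 1 library was left out the differences ranged from -16 to -12.1 points for Pvalb-like and from 8.57 to 17.5 points for Vip-like cells. As the libraries of the genotypes did not overlap, leaving 1 out could not reverse the direction. Clustering the cells without the 161 genes at an unadjusted p under 0.05 between genotypes put all 298 cells back in the class they had. The 161 genes came from the same data, other class genes were kept, and each gene was centred within its library in both clusterings. The second clustering therefore does not test whether the shares differ. The 4 shares of a library sum to the whole and are not independent of each other.

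**Figure D3:**
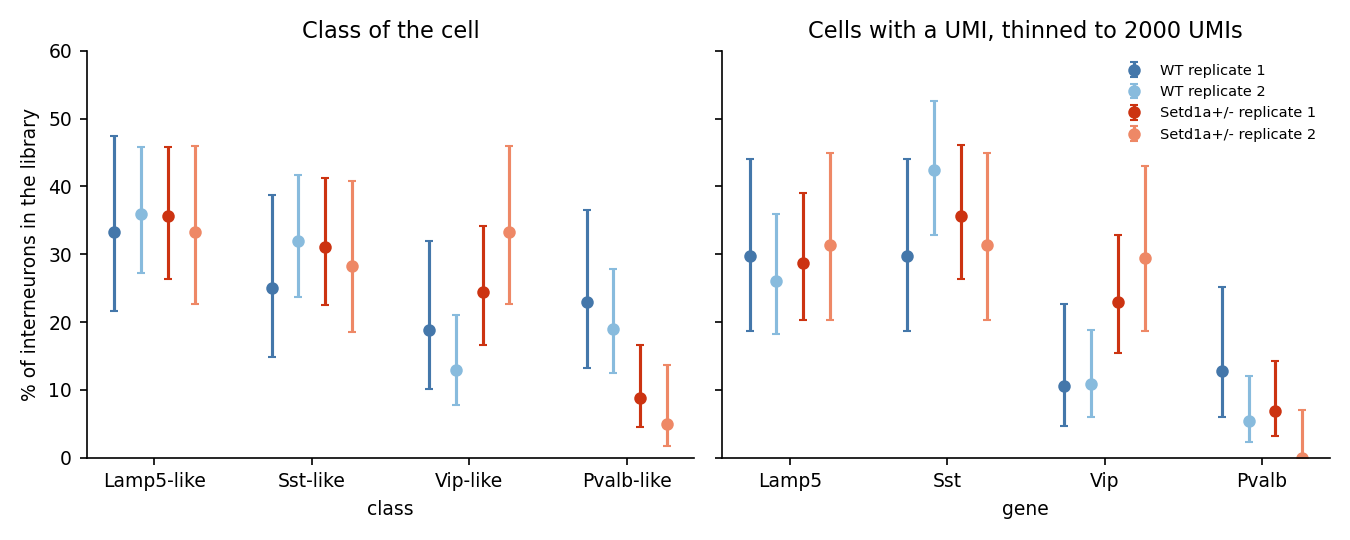
Left, the percentage of the interneurons of each library in each class; right, the percentage with a UMI of 4 class markers after thinning each cell to 2000 UMIs. Points are libraries and bars 95% Wilson intervals: both Setd1a+/- points lie above both WT points for the Vip-like class and Vip and below them for the Pvalb-like class, while for Pvalb itself WT replicate 2 (5.43%) lies below Setd1a+/- replicate 1 (6.9%).

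Single markers, free of clustering, were counted in cells thinned to 2000 UMIs, which left out 1 and 8 cells of the WT libraries and 3 and 9 of the Setd1a+/- libraries. A UMI of Vip was found in 10.6% and 10.9% of WT interneurons and in 23% and 29.4% of Setd1a+/- interneurons, a difference of 15.4 points (exact permutation p = 0.333). Unthinned, the shares were 12.5% and 11% against 23.3% and 35%, where 0.59% of oligodendrocytes and 1.01% of excitatory neurons had a UMI of Vip. Sst was found in 29.8% and 42.4% of thinned WT cells and in 35.6% and 31.4% of thinned Setd1a+/- cells (exact permutation p = 1). Lamp5 was found in 29.8% and 26.1% of WT and in 28.7% and 31.4% of Setd1a+/- cells (exact permutation p = 0.667). Sst, at 35.9% of all unthinned interneurons, had a UMI in 3.31% of oligodendrocytes and in 4.5% of excitatory neurons. Lamp5, at 33.6%, had one in 0.177% of oligodendrocytes and in 23.6% of excitatory neurons.

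Pvalb was sparse. After thinning it was found in 12.8% and 5.43% of WT interneurons, in 6.9% of interneurons of Setd1a+/- replicate 1 and in 0 of 51 of replicate 2, where 3 counts would allow a share of cells with a UMI of up to 5.88% and the Wilson interval reaches 7%. The difference of -5.65 points overlapped between genotypes (exact permutation p = 0.667). Unthinned, the shares were 20.8% and 8% in WT and 7.78% and 0 of 60 in Setd1a+/- libraries, the last allowing up to 5%. Newly formed oligodendrocytes held a UMI of Pvalb in 14.9% of cells, at a median of 2802 UMIs, against 0.059% of oligodendrocytes.

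Interneurons as a whole were 10.5% (Wilson interval 8 to 13.6%) and 7.76% (6.42 to 9.35%) of the neurons of the WT libraries. They were 11.5% (9.46 to 13.9%) and 11% (8.67 to 13.9%) of the neurons of the Setd1a+/- libraries. The difference of 2.15 points was smaller than the gap between the WT libraries (exact permutation p = 0.333), and the difference in the share of all annotated cells was 1.27 points (p = 0.333 by the same exact test). Without WT replicate 1 these differences were 3.51 points of neurons and 0.317 points of all cells, and without WT replicate 2 they were 0.789 and 2.22 points.

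UMIs summed over the interneurons of each library were then compared between genotypes. No gene passed. With edgeR 0 of 5915 genes tested (0%) were called at a false discovery rate (FDR) under 0.05 and a fold change above 1.5, and the FDR of each gene was 1. The FDR is therefore not repeated at each gene below. At an unadjusted p under 0.05 stood 161 genes, of which 62 (1.05%) were higher and 99 (1.67%) lower in Setd1a+/- interneurons. DESeq2 also called 0 genes, with 24 at an unadjusted p under 0.05. With a replicate block, the replicate number as a term in the model, edgeR called 0 genes and placed 289 at an unadjusted p under 0.05. Both Setd1a+/- libraries lay above both WT libraries for 810 genes (13.7%) and below them for 939 (15.9%), and the median log2 fold change over all genes was -0.003. Leaving out 1 library changed the count: 5 genes were called without WT replicate 1, 0 without WT replicate 2, 10 without Setd1a+/- replicate 1 and 23 without Setd1a+/- replicate 2, where the lone library was assumed to vary like the other group. Without the filter on low counts 6 genes were called, Vip, Pvalb, Ntng1, Gm42418 and the microglial genes C1qa and C1qb. The filter needs enough counts in 2 libraries, so a gene can enter the test through the genotype where it is high. Tcap, Ntng1, Ankrd50, Adap1, Setd1b and Rbbp5 entered through the WT libraries alone, and Dleu7 and Cxcl14 through the Setd1a+/- libraries alone. The values that follow did not pass the correction, and ± gives the standard error of a log2 fold change.

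No gene of the GABA machinery had an unadjusted p under 0.05, and Gad1, Gad2 and Slc32a1 overlapped between genotypes. The log2 fold change of Setd1a+/- over WT was 0.01 ± 0.253 (standard error) for Gad1, -0.04 ± 0.27 for Gad2 and 0.28 ± 0.294 for Slc32a1. Of the 12 genes of GABA synthesis and transport 9 were tested, 0 had a p under 0.05 in either direction, and 0 lay above and 2 below the WT libraries, where 13.7% of all genes lay above and 15.9% below, with a median log2 fold change of -0.16. Among them was Abat, the enzyme that breaks GABA down, at 129 and 137 against 93.2 and 109 CPM.

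Vip had the smallest p of the peptides. It was at 1966 and 1323 CPM in the WT libraries and at 3119.9 and 4478 CPM in the Setd1a+/- libraries, a log2 fold change of 1.24 ± 0.29. Both Setd1a+/- libraries were above both WT libraries. Within Vip-like cells the level was 17907 and 11537 CPM in WT, against 18602 and 20450.2 CPM in Setd1a+/- libraries, from 6, 10, 19 and 19 cells with a UMI. Over all interneurons the share of Vip-like cells moved with the genotype too, and its part in the difference was not tested. Npy ran the other way, at 15135 and 12884 CPM in WT, against 7853 and 9959.7 CPM in Setd1a+/- libraries, a log2 fold change of -0.63 ± 0.234.

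Npy was also lower in both Setd1a+/- libraries within each of the Lamp5-like and Sst-like classes. In Lamp5-like cells it stood at 30631 and 34469 CPM in WT, against 18669 and 23463 CPM in Setd1a+/- libraries, and in Sst-like cells at 8636 and 3246 against 2255 and 938 CPM. The Sst-like class held 12 and 32 cells in the WT libraries and 28 and 17 in the Setd1a+/- libraries. In Pvalb-like cells, at 2014 and 874 against 1263 and 2722 CPM, the genotypes overlapped. Fitted on the class alone, the log2 fold change was -0.64 ± 0.254 in Lamp5-like and -1.93 ± 0.516 in Sst-like cells. These fits tested 3020 and 2680 genes and called 0 (0%) in each class. At an unadjusted p under 0.05 they placed 80 and 76 genes. Sst itself was at 8090.4 and 7463 CPM in WT, against 8022 and 5600.5 CPM in Setd1a+/- interneurons, with a log2 fold change of -0.18 ± 0.24. Within Sst-like cells it was -0.33 ± 0.26, with 27538 and 17976 CPM in WT, against 21253 and 16293 CPM in Setd1a+/- libraries, which overlapped. Of 14 neuropeptide genes 11 were tested, of which Vip was higher and Npy lower at a p under 0.05, as 1.05% and 1.67% of all genes were, with a median log2 fold change of 0.44. Tac2 (82.9 and 223 against 124 and 579 CPM) and Cort (386 and 359 against 162 and 387 CPM) overlapped between genotypes. For Tac2 the Setd1a+/- library was the higher one in each replicate.

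**Figure D4:**
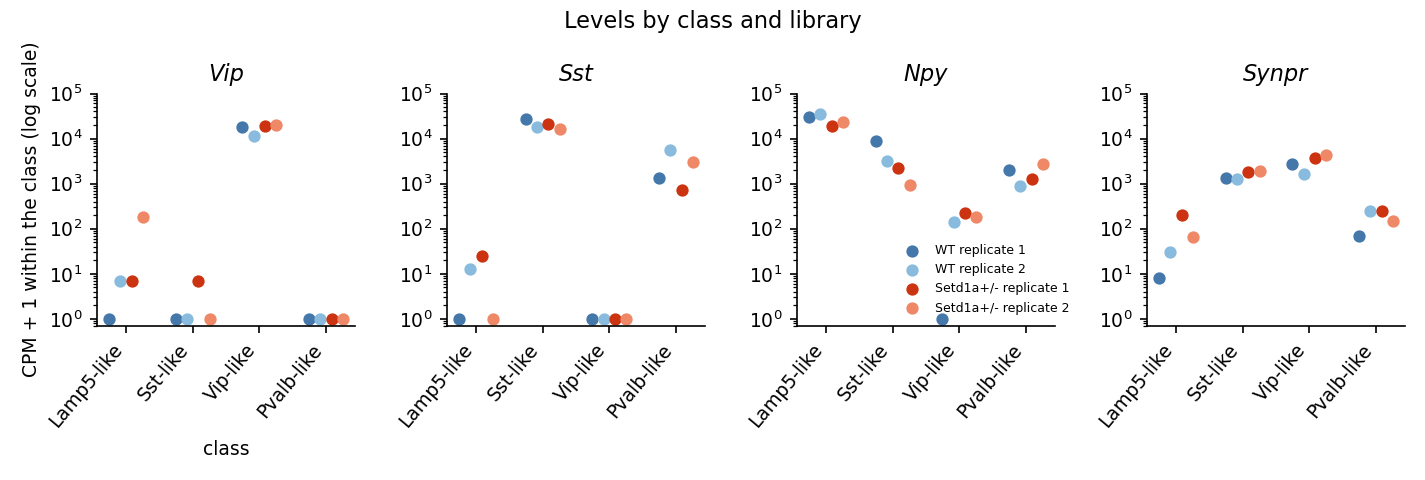
Level (CPM + 1 on a log scale) of Vip, Sst, Npy and Synpr in each class and library. Npy in both Setd1a+/- libraries lies below both WT libraries in the Lamp5-like and Sst-like classes, Sst overlaps between genotypes in the Sst-like class, and Synpr in both Setd1a+/- libraries lies above both WT libraries in the Lamp5-like, Sst-like and Vip-like classes.

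Of the 10 genes with the smallest p among those higher in Setd1a+/- interneurons, Hspa2 led. Hspa2 (chr12:76404176-76406938, plus strand), a heat shock protein of the HSP70 family, was at 28.6 and 21.9 CPM in WT, against 86.5 and 82.7 CPM in Setd1a+/- libraries, a log2 fold change of 1.77 ± 0.363. Most of it lay in the Lamp5-like class, with 64.2 and 35.7 against 199 and 131 CPM from 8, 4, 16 and 10 cells, where the fit gave 1.75 ± 0.446. Astrocytes held 178 CPM of Hspa2. Synpr was at 697 and 705 CPM in WT, against 1400.2 and 1595 CPM in Setd1a+/- libraries, with a log2 fold change of 1.11 ± 0.24. The Vip-like and Sst-like classes held most of it, with 2681 and 1670.5 against 3736 and 4287 CPM and with 1359 and 1289 against 1816 and 1905 CPM. In Lamp5-like cells it was at 7.14 and 29.7 against 199 and 65.5 CPM, from 1, 5, 33 and 8 UMIs. Its log2 fold change was 2.76 ± 0.738 in Lamp5-like cells, 0.44 ± 0.257 in Sst-like cells and 0.61 ± 0.253 in both together.

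The other 7 beside Vip were Tmed4, of the early secretory pathway (0.93 ± 0.284), the ubiquitin protease Usp47 (1.35 ± 0.429), the membrane protein Vstm2a (0.75 ± 0.245), the proteasome activator subunit Psme2 (1.04 ± 0.344), the immediate early gene Fos (1.19 ± 0.395), the ubiquitin ligase subunit Maea (1.00 ± 0.333) and Dleu7 (1.43 ± 0.483). Without Setd1a+/- replicate 1 the value of Dleu7 was 0.95, and that of Fos was 0.73 without WT replicate 1 and 1.95 without WT replicate 2. In the Lamp5-like and Sst-like classes together the value of Usp47 was 0.71 ± 0.537. Vstm2a was at 311 and 315 CPM in WT, against 537 and 506 CPM in Setd1a+/- libraries, and was higher in both Setd1a+/- libraries in each of the 4 classes. In Lamp5-like cells it was at 171 and 214 against 387 and 287 CPM, in Sst-like cells at 372 and 328 against 552 and 563 CPM.

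Among the 10 genes lower in Setd1a+/- interneurons, Gm42418 had the smallest p. This long noncoding RNA (chr17:39846958-39848788, plus strand) overlaps a ribosomal RNA repeat, so its reads cannot be told from those of ribosomal RNA. It was at 151 and 91.6 CPM in WT, against 15.5 and 36.4 CPM in Setd1a+/- libraries, a log2 fold change of -2.25 ± 0.463. It stood at 834 CPM in endothelial cells. Tcap, known as a sarcomere protein, was at 45.7 and 49.8 CPM against 8.88 and 6.62 CPM (-2.54 ± 0.524), and Phlda1, a pleckstrin homology protein, at 114 and 69.7 against 37.7 and 33.1 CPM (-1.32 ± 0.376). Both are among the 10 leading genes of the Pvalb-like class, whose share was lower in the same libraries. Within that class Tcap was at 222 and 241 against 72.9 and 147 CPM and Phlda1 at 458 and 291 against 291 and 294 CPM, over 11, 19, 8 and 3 cells. Ntng1, the axon guidance protein netrin-G1, was at 31.4 and 51.8 CPM against 4.44 and 3.31 CPM (-3.31 ± 0.691). It had 40 UMIs in 14 interneurons, and 1 cell held 40% of them.

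Chd3, a chromatin remodeller of the NuRD complex, was at 85.7 and 95.6 CPM in WT, against 20 and 39.7 CPM in Setd1a+/- libraries, a log2 fold change of -1.64 ± 0.412. In Lamp5-like cells it stood at 143 and 137 against 24.2 and 73.7 CPM, and in the Lamp5-like and Sst-like classes together its log2 fold change was -1.73 ± 0.385. The other 5 were Ankrd50, of endosomal recycling (-1.87 ± 0.47), Fndc5, the precursor of irisin (-1.30 ± 0.353), the microtubule protein Ckap5 (-1.25 ± 0.345), the transcription factor Nfx1 (-1.12 ± 0.325) and Adap1 (-1.88 ± 0.548).

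**Figure D5:**
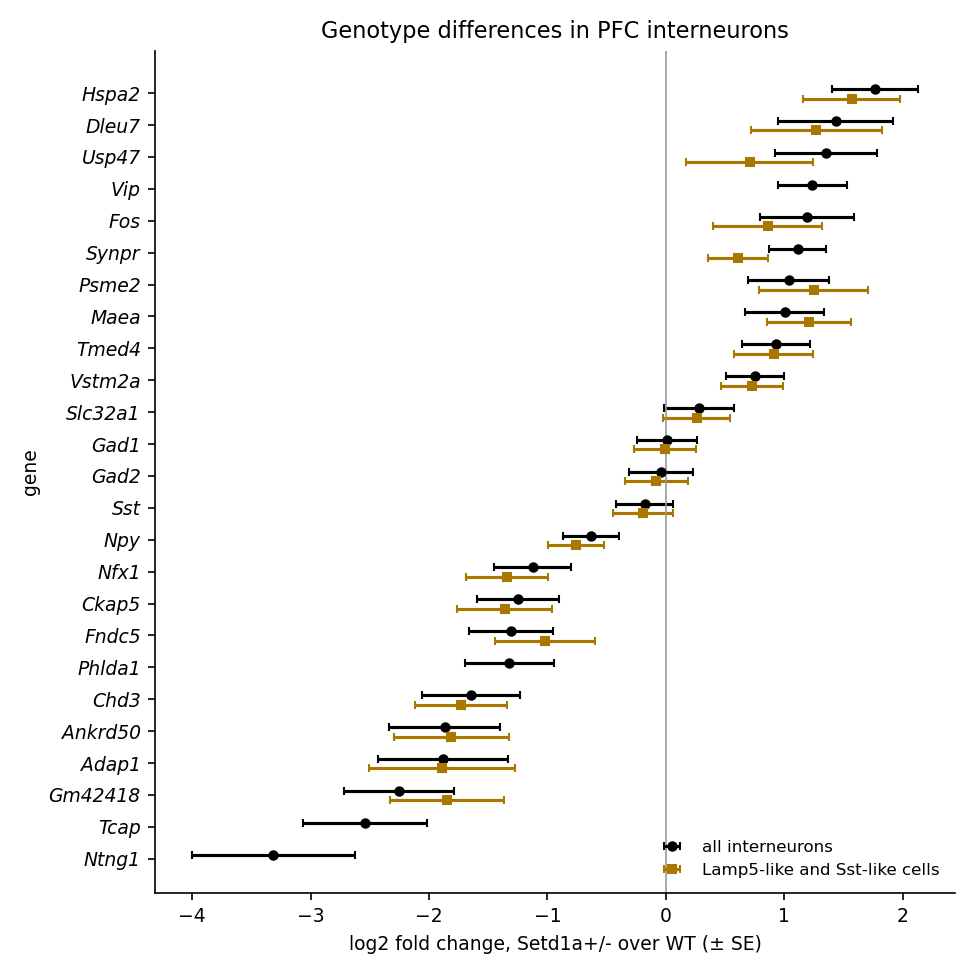
Log2 fold change of Setd1a+/- over WT (points, with bars of 1 standard error) of the 10 genes of smallest p in each direction and of Gad1, Gad2, Slc32a1, Sst and Npy. Black points are all interneurons and ochre squares Lamp5-like and Sst-like cells alone, where Vip, Tcap, Phlda1 and Ntng1 did not pass the filter on low counts; Synpr was 1.11 in all interneurons and 0.61 in the 2 classes.

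The marker lists of the Vip and Pvalb classes lay on opposite sides of 0, as the shares of these classes did. The counts are summed over all interneurons and some of these genes define the classes, so the 2 results are not independent. In the Vip list 11 of 13 genes were tested, of which 3 were higher and 0 lower at a p under 0.05, where 1.05% of all genes were higher and 1.67% lower. The median log2 fold change was 0.49 against -0.003 over all genes. The 3 were Vip, Calb2 (0.80) and the chemokine Cxcl14 (1.90). Cxcl14 entered the test through the Setd1a+/- libraries alone, so the filter favoured a higher value there. Cxcl14 was at 17.1 and 15.9 against 28.8 and 99.3 CPM, from 6, 8, 13 and 30 UMIs, and its log2 fold change was 0.79 without Setd1a+/- replicate 2. That of Calb2, at 223 and 333 against 597 and 367 CPM, was 0.52 without WT replicate 1 and 0.44 without Setd1a+/- replicate 1. Within Vip-like cells Calb2 was at 1692 and 1914 CPM in WT, against 2663 and 1337 CPM in Setd1a+/- libraries, which overlapped. In the Pvalb list 9 of 12 were tested, of which 0 were higher and 3 lower, against the same 1.05% and 1.67% of all genes, with a median of -0.62. The 3 were Cplx1 (-0.66), Sox6 (-1.02) and Kcnc2 (-0.62). Pvalb was at 117 and 189 CPM in WT, against 86.5 and 0 CPM in Setd1a+/- libraries (-1.69 ± 0.797), where 0 UMIs allow up to 9.93 CPM. Within Pvalb-like cells it was at 542 and 945 against 947 and 0 CPM, the last from 3 cells. Tac1 was at 494 and 151 against 204 and 59.6 CPM, so the genotypes overlapped over all libraries while the Setd1a+/- library was the lower one in each replicate. With the replicate block the log2 fold change was -1.28 ± 0.262 for Tac1 (edgeR FDR 0.129) and -1.74 ± 0.538 for Pvalb (FDR 0.681), which were not called. In Pvalb-like cells Kcnc2 was at 528 and 492 against 437 and 368 CPM, and in the Lamp5-like and Sst-like classes together its log2 fold change was -0.09 ± 0.314.

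The lists of the other classes are read against the 1.05% of all genes that were higher and the 1.67% that were lower at a p under 0.05. The Sst list had 0 of 13 tested genes higher and 3 lower, Sox6, Npy and Nos1, with a median of -0.04. Nos1, neuronal nitric oxide synthase, was at 97.2 and 61.7 CPM in WT, against 26.6 and 36.4 CPM in Setd1a+/- libraries (-1.31 ± 0.401). In the Sst-like class it had 18 and 21 UMIs in the WT libraries, from 2 cells and 1 cell, and 0 and 2 UMIs in the Setd1a+/- libraries. In Lamp5-like cells it stood at 114 and 53.5 against 60.4 and 65.5 CPM, which overlapped. The Lamp5 list had 0 of 12 higher and 1 lower, which was Npy, with a median of 0.07. The Sncg list, for cells that make cholecystokinin, had 1 of 5 higher, Cnr1, at 274 and 289 against 433 and 503 CPM (0.75 ± 0.257). Cnr1 was at 121 and 178 against 405 and 295 CPM in Lamp5-like cells and overlapped between genotypes in Sst-like cells, at 282 and 401 against 368 and 266 CPM. The list of Meis2 cells, an interneuron class near the white matter, had 1 tested gene, Synpr. The list of general interneuron genes had 1 of 13 higher, Vip, and 0 lower, with a median of 0.01.

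Of 12 GABA-A receptor subunits 10 were tested, 0 had a p under 0.05, and 1 lay above and 3 below the WT libraries, with a median of -0.25, where 13.7% of all genes lay above and 15.9% below. Among those below were Gabra2 (65.7 and 47.8 against 26.6 and 46.3 CPM) and Gabra3 (51.4 and 53.8 against 42.2 and 36.4 CPM), and the 1 above was Gabrb1 (117 and 104 against 173 and 126 CPM). Of 14 glutamate receptor genes 13 were tested, of which 0 were higher and 1 lower at a p under 0.05 (1.05% and 1.67% of all genes, here and for the lists that follow). Of the 13, 0 lay above and 5 below the WT libraries, with a median of -0.18. The 1 was Gria4, an AMPA receptor subunit, at 100 and 95.6 against 48.8 and 56.3 CPM (-0.89 ± 0.31). Its log2 fold change was -1.2 ± 0.354 in the Lamp5-like and Sst-like classes together. Of 23 voltage-gated channel genes 20 were tested, of which 0 were higher and 2 lower at a p under 0.05, and 0 lay above and 6 below the WT libraries, with a median of -0.16. The 2 were Kcnc2 and Cacna2d2, a calcium channel subunit, at 88.6 and 79.7 against 39.9 and 36.4 CPM (-1.11 ± 0.333). Cacna2d2 was found mainly in the Sst-like and Pvalb-like classes, and in Sst-like cells it stood at 191 and 119 against 89 and 88.8 CPM. In the Lamp5-like and Sst-like classes together its log2 fold change was -0.7 ± 0.382. Of 21 genes of transmitter release 17 were tested, with 0 higher and 1 lower, Cplx1, and a median of -0.14.

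The smaller lists held no gene at a p under 0.05. These were the 2 GABA-B receptor genes (median -0.16), the 2 tested of 19 neuropeptide receptors (0.38), the 3 tested of 11 genes of the perineuronal matrix (-0.09) and the 2 tested of 6 genes of neuregulin signalling (-0.43), one of which was Erbb4, the neuregulin receptor of interneurons, at 303 and 203 against 193 and 205 CPM. Of 20 factors of interneuron migration and specification 16 were tested, with 0 higher and 1 lower, Sox6, against 1.05% and 1.67% of all genes, and a median of -0.07. Dlx1 was at 146 and 104 against 102 and 182 CPM and Lhx6 at 40 and 57.8 against 48.8 and 56.3 CPM, which overlapped.

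Markers of other cell types were mostly below the filter. Of 3 tested oligodendrocyte genes Mbp, which encodes a myelin protein, was lower in Setd1a+/- libraries at a p under 0.05, as were 1.67% of all genes. For microglia the 7 markers summed to 65.7 and 345 CPM in WT, against 53.3 and 39.7 CPM in Setd1a+/- libraries. The excitatory, endothelial, astrocyte and progenitor lists had 2, 3, 2 and 1 tested genes and none at a p under 0.05, as had the neuroblast and red blood cell lists with 5 and 1. No gene of the newly formed oligodendrocyte and medium spiny neuron lists was tested.

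Setd1a (chr7:127776670-127800122, plus strand) was close to the limit of detection in these cells. It had 4 and 6 UMIs in the WT libraries and 0 and 6 in the Setd1a+/- libraries, that is 11.4 and 12 against 0 and 19.9 CPM, where 0 of 450657 UMIs allow up to 6.66 CPM. It did not pass the filter. The counts come from the 3' end of transcripts and not from the deleted bases, so they do not check the genotype. Of 17 genes of H3K4 methylation 11 were tested, of which 0 were higher and 1 lower at a p under 0.05, against 1.05% and 1.67% of all genes. Both Setd1a+/- libraries lay above both WT libraries for 0 and below them for 4, where 15.9% of all genes lay below, and the median log2 fold change was -0.26. The methyltransferase Kmt2a (chr9:44803355-44881296, minus strand) was at 143 and 129 CPM in WT, against 68.8 and 72.8 CPM in Setd1a+/- libraries, a log2 fold change of -0.93 ± 0.282. In Sst-like cells Kmt2a stood at 201 and 192 against 71.2 and 109 CPM. The other 3 were Setd1b, the closest relative of Setd1a, at 40 and 39.8 against 24.4 and 23.2 CPM, the methyltransferase Kmt2c at 48.6 and 43.8 against 35.5 and 33.1 CPM, and Rbbp5, a subunit shared by these complexes, at 25.7 and 25.9 against 20 and 23.2 CPM. Setd1b and Rbbp5 entered the test through the WT libraries alone, so the filter favoured a place below WT for both. The count of 4 is not free of this.

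Immediate early genes are switched on in neurons by activity. Of 18 genes 6 were tested, of which 2 were higher and 0 lower at a p under 0.05, against 1.05% and 1.67% of all genes. Of the 6, 3 lay above the WT libraries, where 13.7% of all genes did, and 0 below, and the median log2 fold change was 1.02. Among members with too few counts to be tested, Nr4a2 (17.1 and 23.9 against 6.66 and 6.62 CPM) and Dusp1 (22.9 and 31.9 against 15.5 and 13.2 CPM) lay below the WT libraries. Fosl2 (8.57 and 9.96 against 11.1 and 26.5 CPM) and Npas4 (5.72 and 5.98 against 6.66 and 6.62 CPM) lay above them. Fos was at 71.4 and 159 CPM in WT, against 315 and 218 CPM in Setd1a+/- libraries, and Egr1 at 57.2 and 102 against 144 and 146 CPM (0.85 ± 0.34). Nr4a1 was at 11.4 and 49.8 against 107 and 53 CPM. Fos was higher in both Setd1a+/- libraries in Vip-like cells, at 234 and 331 against 768 and 476 CPM, and in Lamp5-like cells, at 28.5 and 29.7 against 78.5 and 40.9 CPM, and overlapped in Sst-like cells, at 121 and 204 against 404 and 168 CPM. In the Lamp5-like and Sst-like classes together the log2 fold change was 0.86 ± 0.459 for Fos and 0.45 ± 0.35 for Egr1. Endothelial cells held 4890.0 CPM of Fos, and the endothelial markers other than Bsg were at 45.7 and 147 against 131 and 169 CPM in interneurons. Their part in these values was not tested.

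Whether the genotype difference of interneurons departed from that of the 2775 excitatory neurons of the same libraries was tested as an interaction, with the library as a block. Of 11255 genes 3 (0.0267%) were called, and for all 3 the difference was lower in interneurons, with 605 at an unadjusted p under 0.05. Ptn, the growth factor pleiotrophin (chr6:36714929-36810220, minus strand), was at 134 and 239 CPM in WT, against 149 and 82.7 CPM in Setd1a+/- interneurons, which overlapped, and at 536 and 715 against 695 and 1128 CPM in excitatory neurons. The difference between the log2 fold changes was -1.09 ± 0.224 (edgeR FDR 0.0218). Of the 259 UMIs of Ptn in interneurons, 1 cell held 19.7%. Cartpt, the precursor of the CART peptide (chr13:99898489-99901091, minus strand), was at 203 and 45.8 against 133 and 136 CPM in interneurons, which overlapped. In excitatory neurons it was at 6.89 and 5.43 against 15.4 and 48 CPM, and the difference was -1.81 ± 0.377 (FDR 0.0218). Ntng1 (chr3:109780040-110144011, minus strand) was at 67 and 58.9 against 51.7 and 54.8 CPM in excitatory neurons, so its difference of -3.18 ± 0.667 (FDR 0.0218) came with a lower level in interneurons, where 1 cell held 40% of the UMIs. For Ptn, Setd1a+/- replicate 2 was the lowest library in interneurons and the highest in excitatory neurons. For Cartpt both Setd1a+/- libraries were above both WT libraries in excitatory neurons, replicate 2 by the most. Ptn was at 5546 CPM in oligodendrocyte progenitors and 4321 CPM in endothelial cells.

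These 3 calls depended on the settings. With library size alone, with a minimum count of 20 and without Setd1a+/- replicate 2, 0 genes were called, with a replicate block 10, and with the other libraries left out 9 to 14. Without WT replicate 1 the difference of Cartpt was -0.76 and was not called, and without WT replicate 2 those of Ptn and Ntng1 were -0.87 and -2.65 and were not called. Among the genes that stood next, Vip was 1.78 ± 0.421 higher in its log2 fold change in interneurons than in excitatory neurons, which held 1.32 to 3.62 CPM of it (FDR 0.0972). Calb2 was 2.15 ± 0.511 higher (FDR 0.0972), Cplx2, a complexin, 0.86 ± 0.198 higher (FDR 0.0865), Cryab, a small heat shock protein, 0.77 ± 0.185 higher (FDR 0.0996) and Tagln3 0.57 ± 0.153 higher (FDR 0.26). On the lower side were the guanine deaminase Gda (-0.81 ± 0.197, FDR 0.118) and the potassium channel Kcnma1 (-0.90 ± 0.224, FDR 0.13). With the replicate block Vip (1.73), Cplx2 (0.90), Cryab (0.79), Gda (-0.83) and Kcnma1 (-0.89) were called. For Gm42418 the difference between the log2 fold changes was -0.27 ± 0.402.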

How the data were processed

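Interneurons of 4 PFC libraries were analysed. The authors counted reads with Cell Ranger 3.0.2 (mm10) and clustered cells with Seurat 3.2.0, versions per the submitters' processing notes. The deposited matrices hold raw counts of UMIs per gene and barcode. A deposited table gives cell type and library per cell, from which the authors had dropped cells under 800 genes or over 10% mitochondrial counts. Other deposited tables of expression, whose rows could not be tied to genes here, and the striatal libraries were not used. The authors' test over cells, DEsingle, was not run here.

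Counts were summed over interneurons per library and tested with edgeR 4.0.16 (quasi-likelihood F test, TMM, filterByExpr with a minimum count of 10) in R 4.3.3. A standard error is the absolute log2 fold change over the root of F. DESeq2 1.42.0 was an alternative. Benjamini-Hochberg adjustment ran over all genes tested. Shares of cells were compared with two-sided exact permutation tests over libraries (Python 3.11.15, scipy 1.17.1). Cells were clustered on 1000 variable genes, 15 principal components and 15 neighbours (leidenalg 0.10.2, resolution 1.0), leaving out 84 genes at least 4-fold apart between the replicate numbers in all PFC cells. Each variable gene was centred within its library before the principal components were taken. With resolution 0.6 and with 10 components 99.3% of cells kept their class, and at resolution 1.5 there were 6 clusters, with 71.5% of cells in the best match of their class. No doublet caller was run. The fits were also run on simulated data, and the outcome is not reported here.

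By the study's methods a biological replicate was 1 WT and 1 Setd1a+/- library. The gene-wise differences between replicates 1 and 2 of WT and Setd1a+/- interneurons correlated at 0.40 over 5915 genes. The design has only 2 pairs, and the replicate block was run as an alternative.

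Genes named are the markers, the 20 most enriched, the 10 of smallest p in each direction of the genotype fit and 5 of the interaction, members of fixed lists, and the 3 most like each of Sst, Vip, Pvalb and Lamp5. A few members of the lists are not reported here. Members and lists were chosen with earlier results of these data known. A count of 0 is taken to allow up to 3 counts, and Wilson intervals are at 95% and cover counting error only.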

Additional observations from a re-analysis of the deposited data

Results flagged for a closer look

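The genotype difference in interneurons departed from that in excitatory neurons, by the test of the interaction itself, for 3 genes. The difference between the log2 fold changes was -1.09 for Ptn, -1.81 for Cartpt and -3.18 for Ntng1, each with an edgeR FDR of 0.0218. None of the 3 was called with library size alone, with a minimum count of 20 or without Setd1a+/- replicate 2, where the values were -0.50, -0.98 and -3.02. Ptn was called without WT replicate 1 (-1.21) and without Setd1a+/- replicate 1 (-2.04), Cartpt without WT replicate 2 (-2.64) and without Setd1a+/- replicate 1 (-2.59), and Ntng1 without WT replicate 1 (-3.49).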

How the results depend on the processing

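With 298 interneurons in 4 libraries the data set limits on every comparison: 3 Pvalb-like cells in 1 library, 2 libraries per genotype, and an exact test that cannot pass. Where a value below moved, the cause was not tested, apart from the smaller number of genes or samples in an alternative that drops them.

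The number of genes called between genotypes was 6 with no filter on low counts and 0 to 23 when a library was left out. At an unadjusted p under 0.05, DESeq2 gave 24 genes, no filter 427, a minimum count of 20 gave 99, the replicate block 289, leaving out a library 173 to 567, and the alternatives chosen after seeing the data 92 (Lamp5-like and Sst-like cells), 80 (Lamp5-like) and 76 (Sst-like). Interaction calls were 0 with library size alone and with a minimum count of 20, 7 with no filter, 10 with the replicate block and 0 to 14 when a library was left out.

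The share differences between genotypes, in percentage points, kept their direction for Vip-like (8.57 to 17.5) and Pvalb-like cells (-16 to -12.1), for a UMI of Vip (12.2 to 18.7) and Pvalb (-9.32 to -1.99), for interneurons among cells (0.317 to 2.22) and for interneurons among neurons (0.789 to 3.51) when a library was left out. Apart from a UMI of Pvalb, these shares did not overlap between genotypes, so leaving out 1 library could not reverse them. For Lamp5-like cells the range was -1.56 to 1.11 (1.11 without WT replicate 2, 0.889 without Setd1a+/- replicate 2) with 0.507 in cells of at least 2000 UMIs, and for Sst-like cells -2.28 to 4.72 (-2.28 without WT replicate 1, -0.167 without Setd1a+/- replicate 1). A UMI of Sst ranged from -8.89 to 3.72 (3.72 without WT replicate 2) and of Lamp5 from 0.267 to 3.97, with -1.29 when 2 UMIs were required.

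Of 471 values of 37 genes between genotypes, 13 in 5 genes changed sign. Gad1 was -0.02 with library size alone, -0.01 with a minimum count of 20 and in Lamp5-like and Sst-like cells, -0.45 in Sst-like cells, -0.21 without WT replicate 2 and -0.01 without Setd1a+/- replicate 1, in a range of -0.21 to 0.27 over the libraries left out. Gad2 was 0.3 without WT replicate 1 and 0.02 without Setd1a+/- replicate 2 (-0.31 to 0.3). Slc32a1 was -0.14 in Sst-like cells and -0.05 without Setd1a+/- replicate 1 (-0.05 to 0.55). Sst was 0.01 without cells holding Slc17a7 or Neurod6 and 0.04 without Setd1a+/- replicate 2 (-0.42 to 0.04), and Cnr1 was -0.16 in Sst-like cells. In the interaction the replicate block also called Vip, Cplx2, Cryab, Gda, Kcnma1, Tcap and Rab3b, and it changed no other call.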
